A study of Mus musculus with 14 samples.

Results

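The NR4A orphan nuclear receptors are 3 related transcription factors, encoded in the mouse by Nr4a1 (Nur77), Nr4a2 (Nurr1) and Nr4a3 (Nor1). They were found by symbol in the 2 deposited count tables, where they are 3 of 49671 genes, and all 3 passed the filter on low counts in both. The tables hold 14 libraries, each made from 1000 freshly sorted satellite cells, which are muscle stem cells. All mice were C57BL/6J, and the cells came from hind-limb, pectoral and triceps muscle at rest. The sort kept cells carrying integrin B1 and CXCR4 and left out those with CD45, CD31, CD11b, Ter119 or Sca1. The first of the 2 datasets has 4 FosGFP+ and 4 FosGFP- libraries, sorted as positive and negative for a GFP reporter of Fos from FosGFP mice aged 4 months. The second has 3 libraries labelled FoscKO, a conditional knockout of Fos, and 3 labelled Control, from mice aged 6 months. In that dataset the series text describes cells of both arms as FosGFP+. The sources used here give no Cre driver, no deleted exon and no further genotype for Control. The text states 4 mice for the FosGFP dataset and 3 for the FoscKO dataset, and libraries are not tied to single mice by any label, so p-values measure the spread between libraries, which may be technical.

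NR4A receptors are called orphans because they act without a known classical ligand, so their activity is thought to follow mainly from how much of the protein is made. They bind the element AAAGGTCA as single molecules, and Nur77 and Nurr1, but not Nor1, also pair with the retinoid X receptors (RXR). Their genes are immediate early genes, switched on within minutes by cAMP, calcium, growth factors or mechanical stimuli through CREB, MEF2 and related factors, much as Fos is. In mature skeletal muscle they rise after exercise and beta-adrenergic stimulation and act on genes of glucose and lipid use.

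The start-site regions of the 3 genes are printed because CREB and AP-1, the dimer of Fos and Jun proteins, read short DNA elements there. Each line gives the 250 bases before the RefSeq start site in GRCm38.p6, read along the gene's strand, and capitals mark TGACG, the core of a cAMP response element, on either strand.
Nr4a1, chr15:101266596-101266845, plus strand: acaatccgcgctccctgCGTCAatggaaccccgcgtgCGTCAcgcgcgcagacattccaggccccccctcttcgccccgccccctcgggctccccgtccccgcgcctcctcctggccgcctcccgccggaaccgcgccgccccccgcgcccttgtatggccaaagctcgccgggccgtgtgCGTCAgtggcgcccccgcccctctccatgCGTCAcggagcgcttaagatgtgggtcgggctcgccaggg
Nr4a2, chr2:57124004-57124253, minus strand: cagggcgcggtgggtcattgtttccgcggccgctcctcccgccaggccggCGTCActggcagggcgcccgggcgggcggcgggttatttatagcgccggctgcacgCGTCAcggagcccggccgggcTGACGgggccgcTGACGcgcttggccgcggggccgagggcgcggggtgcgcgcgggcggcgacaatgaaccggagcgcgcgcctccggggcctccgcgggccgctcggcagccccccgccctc
Nr4a3, chr4:48045055-48045304, plus strand: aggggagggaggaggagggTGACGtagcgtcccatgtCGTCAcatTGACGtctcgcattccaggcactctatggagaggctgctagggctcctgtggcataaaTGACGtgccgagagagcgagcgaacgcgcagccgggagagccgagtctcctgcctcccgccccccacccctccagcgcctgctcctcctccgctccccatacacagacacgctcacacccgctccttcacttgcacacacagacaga

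Each gene held 4 TGACG cores. Motifs were counted on both strands in the RefSeq window of 300 bases, 250 before and 50 after the start, and 0.232% of 32817 mouse windows of that length held 4 or more, while 20.8% held at least 1. All 4 cores of Nr4a1 lay inside TGCGTCA, an element known in this promoter as AP-1-like, at 233, 213, 69 and 40 bases before the start. TGCGTCA was found in 2.11% of windows, and 4 or more copies in 0.00305%, which is the Nr4a1 window alone. Neither Nr4a2 nor Nr4a3 held it. The cores of Nr4a2 began 200, 144, 123 and 111 bases before the start, and those of Nr4a3 231, 213, 205 and 147 bases before it. All distances are from the RefSeq start. The GENCODE gene used for exonic lengths begins at 48045153 for Nr4a3, so its core at 147 lies inside that gene. For Nr4a1 the GENCODE gene begins at 101254269, upstream of the printed window. The full cAMP response element TGACGTCA, of which TGACG is a part, the AP-1 motif TGANTCA, the NR4A element AAAGGTCA and the CArG box bound by SRF had 0 matches in all 3 windows. They occurred in 1.79%, 7.81%, 1.51% and 1.63% of windows. The windows are rich in G and C, at 72.3% for Nr4a1, 81.7% for Nr4a2 and 64.7% for Nr4a3, against a median of 52.7%, and TGACG and TGCGTCA both hold a CpG.

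In GRCm38 with GENCODE M21 genes, Nr4a1 (ENSMUSG00000023034) spans chromosome 15 from 101254269 to 101274795 on the plus strand, with 3509 exonic bases in 4 transcripts. Nr4a2 (ENSMUSG00000026826) spans chromosome 2 from 57106830 to 57124003 on the minus strand, with 4059 exonic bases in 6 transcripts. Nr4a3 (ENSMUSG00000028341) spans chromosome 4 from 48045153 to 48086447 on the plus strand, with 5987 exonic bases in 4 transcripts. No annotated gene overlaps any of them, which matters because the library kit does not keep the strand. Their transcripts were 64.0% to 69.6% identical over the longest alignments of 361 to 1035 bases, and no other gene shared 100 bases at 95% identity with a member, so counts of the 3 can be told apart.

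Total gene counts per library were 3806776 to 5983711 in FosGFP+, 2652230 to 4067543 in FosGFP-, 4797954 to 10241655 in FoscKO and 5326686 to 6930696 in Control. An even background of reads, gauged from smell and taste receptor genes, made up 6.48% to 10.8% of gene counts in FosGFP+ and 13.1% to 19.6% in FosGFP-. It made up 3.99% to 11.8% in FoscKO and 9.15% to 10.6% in Control. FoscKO replicate 1 stood apart, with 30.2% of its reads in genes, against 15.9% to 22.7% in the other FoscKO libraries, and the fewest genes detected, 31483. The satellite cell marker Pax7 was present in every library, at 38.7 to 79.6 CPM in FosGFP+, 41.8 to 85.9 in FosGFP-, 32.1 to 70.8 in FoscKO and 54.9 to 64.9 in Control. CPM here are counts per 1000000 of the TMM-scaled library size, a scaling that assumes most genes to be level between libraries. Fos mRNA did not follow the labels. It was 5243, 5398, 3098 and 4606 CPM in FosGFP+, against 12883, 11592, 7908 and 11302 CPM in FosGFP-, a log2 fold change of -1.25 ± 0.21 (SE; edgeR adjusted p = 9.33e-04). In the libraries labelled FoscKO it was 8442, 2876 and 3805 CPM, against 5044, 5025 and 4733 CPM in Control, a log2 fold change of 0.03 ± 0.39 (SE; edgeR adjusted p = 0.996). Gene-level counts cannot show which exons were read, so FosGFP+, FosGFP-, FoscKO and Control mean libraries so labelled throughout, and every direction is one between labels.

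Per length of transcript, Nr4a1 was by far the most abundant member in every library. In TPM, which divides counts by exonic length, Nr4a1 averaged 518 ± 96.6 in FosGFP+ and 1703 ± 541 in FosGFP- (SD, n = 4 each). It averaged 2624 ± 382 in FoscKO and 1611 ± 118 in Control (SD, n = 3 each). Nr4a2 averaged 29.9 ± 12.4 TPM in FosGFP+ and 25.7 ± 5.81 in FosGFP- (SD, n = 4), and 88.7 ± 29.7 in FoscKO and 78.3 ± 28.5 in Control (SD, n = 3). Nr4a3 averaged 23.4 ± 7.20 TPM in FosGFP+ and 16.3 ± 8.90 in FosGFP- (SD, n = 4), and 92.4 ± 9.51 in FoscKO and 39.5 ± 16.2 in Control (SD, n = 3). Nr4a1 stood above the other members in all 14 libraries, while the ranges of Nr4a2 and Nr4a3 overlapped in each of the 4 groups, so those neighbours were not told apart by level. The 2 datasets were counted in separate tables from mice of different age, so levels set across them were not tested.

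Nr4a1 also stood high among all nuclear receptor genes. Of 49 such genes it ranked first by mean TPM in FosGFP-, FoscKO and Control, and in FosGFP+ it came second to Nr1d1, the circadian receptor Rev-erb alpha, at 727 ± 113 TPM (SD, n = 4). It made up 24.9% of the summed nuclear receptor TPM in FosGFP+ and 60.0% in FosGFP-, and 60.1% in FoscKO and 48.3% in Control. Nr4a2 ranked 9 in FosGFP+ and 11 in FosGFP-, and 6 in FoscKO and 5 in Control. Nr4a3 ranked 12 in FosGFP+ and 16 in FosGFP-, and 5 in FoscKO and 11 in Control.

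FosGFP+ libraries were set against FosGFP- libraries to see what goes with reporter signal in freshly isolated cells. Nr4a1 fell 2.81-fold in FosGFP+. It was 766, 680, 475 and 715 CPM in replicates 1 to 4 of FosGFP+, against 2415, 2292, 1631 and 1065 CPM in replicates 1 to 4 of FosGFP-. The groups did not overlap, and the FosGFP- libraries were the more spread. The means were 659 ± 128 CPM in FosGFP+ and 1851 ± 627 CPM in FosGFP- (SD, n = 4 each), for a log2 difference of -1.49 ± 0.24 (SE; edgeR adjusted p = 8.63e-04). Of 20698 genes tested, 12.1% were called at an adjusted p under 0.05, 10.3% higher and 1.85% lower in FosGFP+, and 6.45% were lower without overlap. Among 15796 tested genes that averaged at least 5 CPM, the fold change of Nr4a1 was the 142nd lowest. The authors' deposited table, with its sign turned to FosGFP+ over FosGFP-, gives Nr4a1 -1.30 ± 0.26 (SE) and an adjusted p of 1.29e-05, and does not list the other members among its 3422 genes.

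Nr4a2 and Nr4a3 did not fall with it. Nr4a2 was 51.2, 66.2, 22.8 and 36.1 CPM in FosGFP+, against 21.8, 39.3, 37.4 and 30.2 CPM in FosGFP-. The groups overlapped, with the highest and nearly the lowest library both in FosGFP+. The means were 44.1 ± 18.8 CPM in FosGFP+ and 32.2 ± 7.95 CPM in FosGFP- (SD, n = 4), for a log2 difference of 0.46 ± 0.30 (SE; edgeR adjusted p = 0.347). Nr4a3 was 66.2, 54.5, 48.9 and 31.8 CPM in FosGFP+, against 23.6, 25.3, 54.6 and 17.3 CPM in FosGFP-. Only replicate 3 of FosGFP- reached into the range of FosGFP+, where it matched the second highest library. The means were 50.4 ± 14.3 CPM in FosGFP+ and 30.2 ± 16.6 CPM in FosGFP- (SD, n = 4), for a log2 difference of 0.74 ± 0.32 (SE; edgeR adjusted p = 0.159). Without FosGFP- replicate 3 it was 1.201, with an adjusted p of 0.0140, past the threshold. The members rest on unequal counts, 1671 to 10839 reads a library for Nr4a1, 80 to 317 for Nr4a2 and 58 to 278 for Nr4a3. Evenly spread reads would make up at most 0.694% of the counts of Nr4a1, 17.9% of those of Nr4a2 and 43.2% of those of Nr4a3, the last in FosGFP- replicate 4. With that background subtracted the log2 fold changes were -1.72, 0.30 and 0.73.

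**Figure D1:**
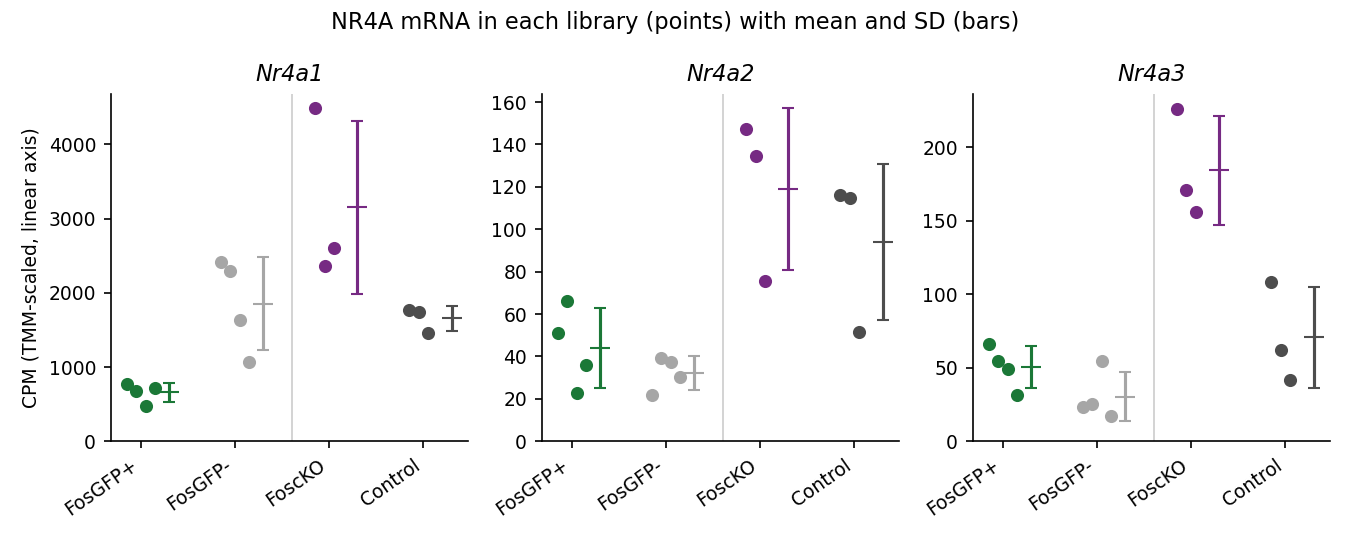
CPM (linear axis) of each NR4A member in the 14 libraries, with the 2 datasets parted by a grey line. Points are libraries in order of replicate number, and bars show the mean and SD of a group. Nr4a1 lies at 475 to 766 CPM in FosGFP+ and at 1065 to 2415 CPM in FosGFP-, while FoscKO lies above Control without overlap for Nr4a1 and Nr4a3.

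The scaling between libraries moves these values, and the order of the members less so. With total gene counts the log2 fold changes of Nr4a1, Nr4a2 and Nr4a3 were -1.86, 0.06 and 0.38, and with TMM from genes of at least 50 CPM they were -2.06, -0.15 and 0.19, so the sign of Nr4a2 turned. Those scalings moved the median of all genes to -0.56 and -0.77, against -0.18 with TMM from all genes. Relative to that median, Nr4a1 stood at -1.31, -1.29 and -1.29 with TMM, total counts and TMM from abundant genes. Nr4a2 stood at 0.64, 0.63 and 0.63, and Nr4a3 at 0.92, 0.94 and 0.96.

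A ratio of 2 members within a library does not depend on that scaling, and Nr4a1 lost ground to both other members in FosGFP+. For each Nr4a2 read there were 14.9, 10.3, 20.8 and 19.7 Nr4a1 reads in FosGFP+, against 110, 58.1, 43.5 and 35.1 in FosGFP-. The groups did not overlap. The mean log2 ratio was 3.98 ± 0.47 in FosGFP+ and 5.80 ± 0.72 in FosGFP- (SD, n = 4), a difference of -1.82 ± 0.43 (SE), or 3.53-fold, with a two-sided exact permutation p of 0.0286, the smallest this design allows, and 0.0429 after Benjamini-Hochberg adjustment over the 3 pairs. For each Nr4a3 read there were 11.5, 12.4, 9.69 and 22.4 Nr4a1 reads in FosGFP+, against 102, 90.2, 29.8 and 60.9 in FosGFP-. These groups did not overlap either. The mean log2 ratio was 3.73 ± 0.53 in FosGFP+ and 6.00 ± 0.80 in FosGFP- (SD, n = 4), a difference of -2.26 ± 0.48 (SE), or 4.81-fold, with the same exact permutation p of 0.0286 and adjusted p of 0.0429. The log2 ratio of Nr4a3 to Nr4a2 averaged 0.25 ± 0.63 in FosGFP+ and -0.19 ± 0.63 in FosGFP- (SD, n = 4), a difference of 0.44 ± 0.45 (SE; exact permutation p = 0.343, adjusted p = 0.343).

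Counted per length, Nr4a1 made up 90.7% ± 2.10 of NR4A transcripts in FosGFP+ and 97.4% ± 1.12 in FosGFP- (SD, n = 4). Nr4a2 made up 5.12% ± 1.67 in FosGFP+ and 1.62% ± 0.681 in FosGFP-, and Nr4a3 made up 4.16% ± 1.27 in FosGFP+ and 1.00% ± 0.611 in FosGFP- (SD, n = 4). For each member the groups did not overlap. The summed level of the 3 was 571 ± 108 TPM in FosGFP+ and 1745 ± 538 TPM in FosGFP- (SD, n = 4).

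**Figure D2:**
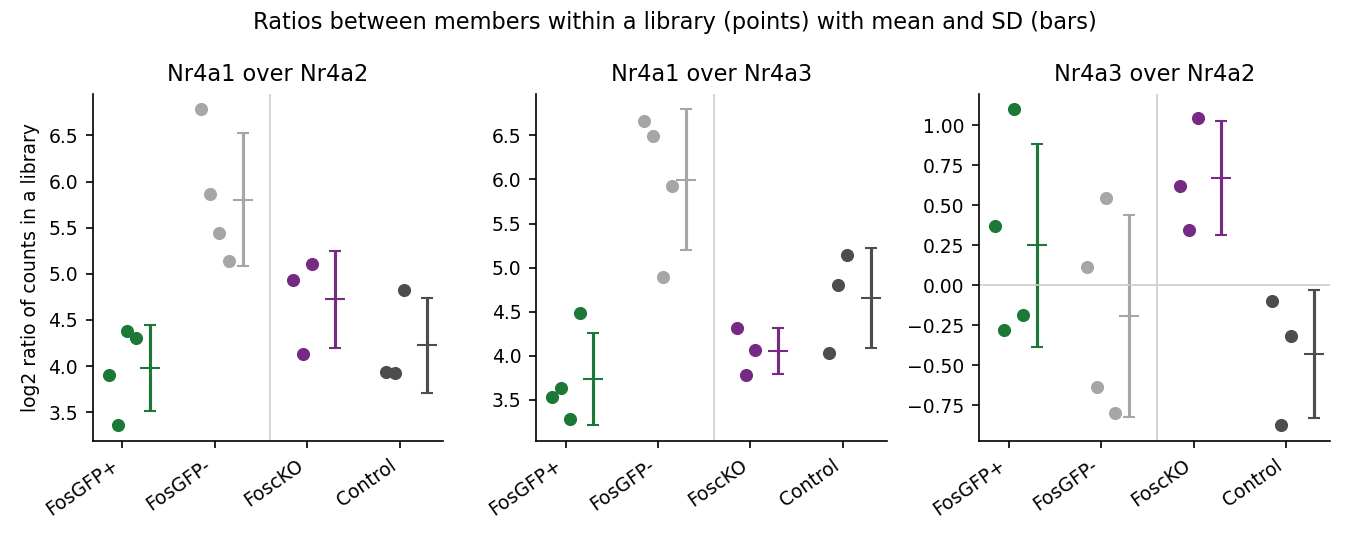
Log2 ratio of the counts of 2 members within each library, with a pseudocount of 0.5, for the 3 pairs. Points are libraries and bars the mean and SD. Nr4a1 over Nr4a2 lies at 3.36 to 4.38 in FosGFP+ and at 5.13 to 6.78 in FosGFP-, and the grey horizontal line in the right panel marks equal counts.

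Other measures moved with the FosGFP labels. Marker calls are set beside those over all 20698 genes tested, which were 2125 higher and 383 lower with TMM. With total counts these were 1029 higher and 2087 lower, with TMM from abundant genes 713 and 5307, and with DESeq2 2779 and 644. Summed satellite cell markers were 12984 to 17064 CPM in FosGFP+ and 6866 to 9944 CPM in FosGFP-. At an adjusted p under 0.05, 6 of 14 were higher, or 42.9%, against 10.3% of all genes. Myod1, Sdc4, Vcam1 and Des rose the most, and under total counts 5 were higher and 3 lower. Calcr, Pax7, Chodl and Cdh15 went the other way, at log2 fold changes of -0.51, -0.44, -0.40 and -0.09. None of these was called, though Calcr did not overlap. Summed endothelial markers were 252 to 320 CPM in FosGFP+ and 315 to 431 CPM in FosGFP-, and 1 of 13 tested, Ramp2, was lower, against 4 with total counts and 9 with TMM from abundant genes. Summed leukocyte markers were 84.6 to 156 CPM in FosGFP+ and 159 to 213 CPM in FosGFP-, with 0 of 12 tested called, against 3 lower with total counts, 6 with TMM from abundant genes and 2 with DESeq2. Fibro-adipogenic markers summed to 4231 to 5536 CPM in FosGFP+ and 2676 to 5624 CPM in FosGFP-, sums made up mostly of Col3a1 and Gsn. Of 11 tested, 8 had a log2 fold change below 0, with a list median of -0.56, against -0.18 over all genes. Below 0 too were 12 of 13 endothelial, 10 of 12 leukocyte, 7 of 10 mural and 5 of 6 Schwann markers. Those lists had medians of -0.57, -0.25, -0.29 and -0.63. So were 4 of 14 satellite cell and 3 of 14 fibre markers. Of the fibro-adipogenic markers Smoc2 was called lower, against 3 lower with total counts and 5 with TMM from abundant genes. Mural cell markers summed to 540 to 711 CPM in FosGFP+ and 280 to 869 CPM in FosGFP-, with Cspg4 lower, against 2 and 3 lower under those scalings. Schwann cell markers summed to 40.3 to 61.6 CPM in FosGFP+ and 54.3 to 71.4 CPM in FosGFP-, and fibre markers to 1019 to 1943 CPM in FosGFP+ and 1014 to 1409 CPM in FosGFP-, with 0 called in either. Scaled by total counts, each of these lists had 1 lower, and by abundant genes each had 2 lower, while DESeq2 called 1 Schwann marker higher, 1 lower and 1 fibre marker higher. No marker of any list was at 0 in all libraries of a group; the endothelial cadherin Cdh5 had 14 to 20 reads in FosGFP+ and 19 to 32 in FosGFP-. The part of these, and of the even background, in the fall of Nr4a1 was not tested. In bulk libraries, fewer cells with a transcript and less of it per cell cannot be told apart.

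The libraries labelled FoscKO were set against those labelled Control, a comparison meant for the loss of Fos, whose mRNA did not differ detectably between them. That value leans on FoscKO replicate 1. Without it the log2 fold change of Fos was -0.56 ± 0.20 (SE; edgeR unadjusted p = 0.0132, adjusted p = 0.707). Nr4a1 and Nr4a3 stood higher in every library labelled FoscKO than in any Control library, but no member passed the threshold over all genes. Nr4a3 was 226, 171 and 156 CPM in FoscKO, against 108, 62.4 and 41.4 CPM in Control. The groups did not overlap. The means were 184 ± 36.9 CPM in FoscKO and 70.7 ± 34.2 CPM in Control (SD, n = 3). The log2 fold change was 1.38 ± 0.33 (SE), or 2.61-fold, at an unadjusted p of 8.42e-04 and an edgeR adjusted p of 0.288. It was the 64th smallest p among 21885 genes tested and the 74th highest fold change among 13915 that averaged at least 5 CPM. The edgeR test called 0 genes (0%) in this comparison, with 1208 at an unadjusted p under 0.05, while DESeq2 called 59 higher and 32 lower. Without FoscKO replicate 1, the edgeR test called 16 higher and 27 lower, and Nr4a3 was not among them. In simulated counts of this comparison, the edgeR test found 143 of 200 made to differ 4-fold and 5 of 200 made to differ 2-fold. Those counts were drawn for each gene independently, with no library standing apart as FoscKO replicate 1 did. They therefore do not give the share that the test would find in the real libraries.

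The call on Nr4a3 therefore depends on the test. DESeq2 gave it a log2 fold change of 1.43 and an adjusted p of 0.0165, and edgeR with no filter on low counts gave 1.41 and 0.00305. The authors' deposited table, turned to FoscKO over Control, lists it among 69 genes at 1.22 ± 0.32 (SE) with an adjusted p of 0.0398, and lists no other member. Without FoscKO replicate 1 the edgeR value was 1.21 with an adjusted p of 0.199, and over all libraries left out in turn it ran from 1.12 to 1.84.

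Nr4a1 was 4486, 2355 and 2609 CPM in FoscKO, against 1773, 1736 and 1460 CPM in Control. The groups did not overlap, and replicate 1, the library that stood apart, was by far the highest. The means were 3150 ± 1164 CPM in FoscKO and 1656 ± 171 CPM in Control (SD, n = 3). The log2 fold change was 0.93 ± 0.33 (SE), at an unadjusted p of 0.0128 and an edgeR adjusted p of 0.772. Without FoscKO replicate 1 it was 0.58. In TPM that library was closer to the others, with Nr4a1 at 3066, 2414 and 2394 TPM in FoscKO, against 1591, 1738 and 1504 TPM in Control. Of all genes tested, 5.75% were higher and 6.47% lower in FoscKO without overlap.

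Nr4a2 was 147, 135 and 75.5 CPM in FoscKO, against 116, 115 and 51.5 CPM in Control. The groups overlapped through most of their range. The means were 119 ± 38.2 CPM in FoscKO and 94.0 ± 36.8 CPM in Control (SD, n = 3), for a log2 difference of 0.34 ± 0.34 (SE; edgeR adjusted p = 0.917). Here evenly spread reads would make up at most 6.00% of the counts of Nr4a2 and 11.0% of those of Nr4a3.

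In reads not divided by length, Nr4a3 stood above Nr4a2 in each FoscKO library and below it in each Control library. Per length, Nr4a3 was below Nr4a2 in FoscKO replicate 2 as well, at 103 TPM against 119 TPM. There were 1.54, 1.27 and 2.07 Nr4a3 reads for each Nr4a2 read in FoscKO, against 0.934, 0.545 and 0.804 in Control. The groups did not overlap, and the mean log2 ratio was 0.67 ± 0.35 in FoscKO and -0.43 ± 0.40 in Control (SD, n = 3). The difference of 1.10 ± 0.31 (SE) had an exact permutation p of 0.1, the smallest that 3 libraries against 3 allow, and 0.3 after adjustment over the 3 pairs. The difference was 0.50 ± 0.42 for Nr4a1 over Nr4a2 (exact permutation p = 0.2) and -0.60 ± 0.36 for Nr4a1 over Nr4a3 (exact permutation p = 0.3), with adjusted p-values of 0.3 and 0.3. The summed level of the 3 members was 2805 ± 382 TPM in FoscKO and 1729 ± 149 TPM in Control (SD, n = 3), without overlap. Nr4a1 made up 93.5% ± 1.65 of it in FoscKO and 93.3% ± 2.02 in Control, Nr4a2 3.19% ± 1.17 in FoscKO and 4.46% ± 1.34 in Control, and Nr4a3 3.33% ± 0.552 in FoscKO and 2.27% ± 0.888 in Control (SD, n = 3).

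Beside these values, summed satellite cell markers were 8994 to 15635 CPM in FoscKO and 9129 to 13098 CPM in Control. Endothelial markers summed to 257 to 314 CPM in FoscKO and 239 to 295 CPM in Control, and leukocyte markers to 74.3 to 129 CPM in FoscKO and 96.6 to 128 CPM in Control. Fibro-adipogenic markers summed to 5636 to 10491 CPM in FoscKO and 6392 to 8010 CPM in Control, and mural cell markers to 838 to 1561 CPM in FoscKO and 682 to 963 CPM in Control. Schwann cell markers summed to 21.7 to 63.6 CPM in FoscKO and 38.0 to 51.1 CPM in Control, and fibre markers to 775 to 2165 CPM in FoscKO and 1783 to 3716 CPM in Control. The edgeR test called 0 markers in these lists. Gene by gene, log2 fold changes were below 0 for 11 of 13 endothelial and 10 of 11 leukocyte markers tested. Their medians were -0.29 and -0.32, against -0.04 over all genes. Below 0 were also 12 of 14 fibre, 5 of 14 satellite cell, 3 of 11 fibro-adipogenic, 4 of 10 mural and 2 of 6 Schwann markers. Total counts, TMM from abundant genes and DESeq2 each gave 2 of 14 fibre markers and 1 of 14 satellite cell markers lower in FoscKO. Of all 21885 genes tested, these settings called 34, 33 and 32 lower, in that order. The fibre list had a median of -0.95. The authors' deposited table, turned to FoscKO over Control, lists Myod1, the myogenic factor, at -1.28, and the fibre genes Mylpf and Myh4 at -1.44 and -1.09. The part of fibre RNA or other cells in the NR4A values was not tested.

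**Figure D3:**
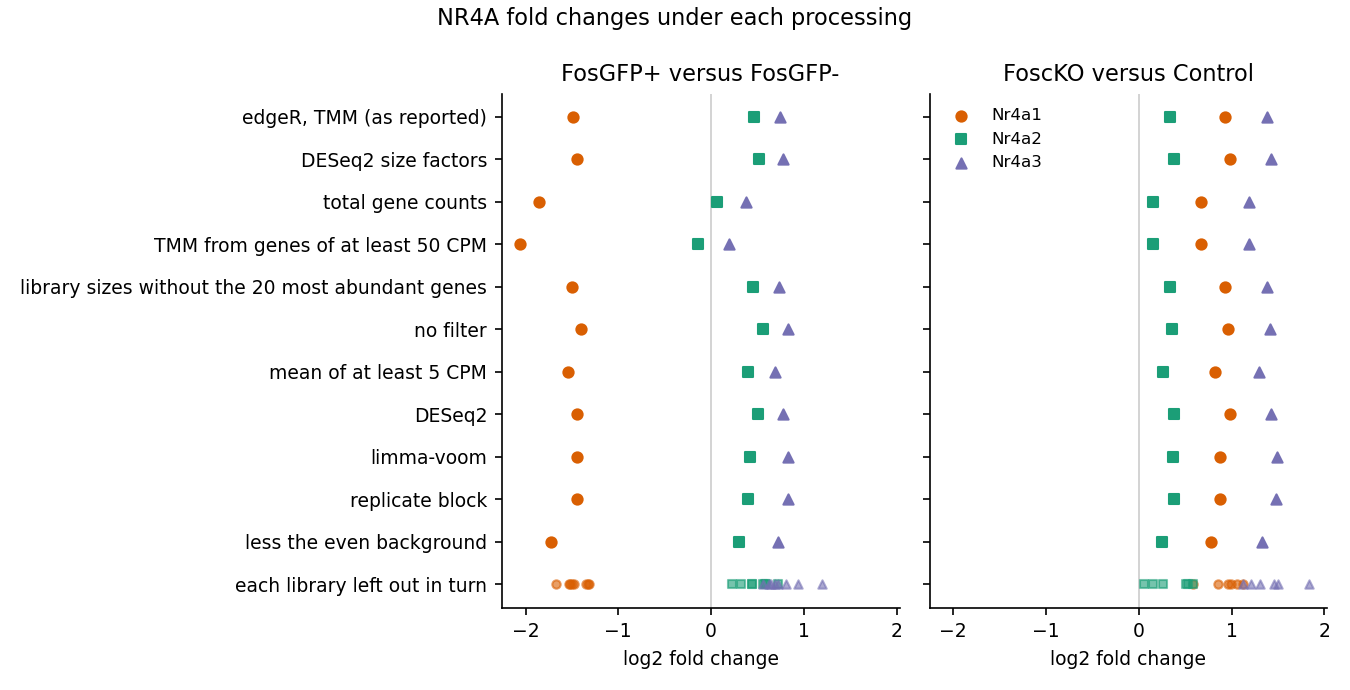
Log2 fold change of each member (horizontal axis) under each processing (rows), for FosGFP+ over FosGFP- at left and FoscKO over Control at right. The lowest row overlays the fits that leave out each library in turn. Nr4a1 stays between -2.06 and -1.31 at left, Nr4a2 crosses 0 with TMM from genes of at least 50 CPM, and all 3 members stay above 0 at right.

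Genes upstream of, beside and downstream of the NR4A receptors are given from 9 lists, the list of the members included. Of the immediate early transcription factors, 5 of 17 tested were higher and 4 lower in FosGFP+, against 10.3% and 1.85% of all genes. Among the lower were Jun, Fos and Junb, which form AP-1, and the stress-induced factor Atf3. Jun was 2034 ± 354 CPM in FosGFP+ and 5246 ± 912 CPM in FosGFP- (SD, n = 4), for a log2 difference of -1.37 ± 0.19, and Atf3 and Junb had -1.07 ± 0.19 and -0.69 ± 0.15 (SE). Among the higher were Fosl1, an AP-1 subunit made later than Fos, at 1.93 ± 0.21, Ier5 at 1.90 ± 0.20, the growth regulator Myc at 1.64 ± 0.18 and the pluripotency factor Klf4 at 0.95 ± 0.24 (SE). Nr4a1 fell, as did Fos and Jun, while Fosl1, Ier5, Myc and Klf4 rose. With total counts 3 were higher and 7 lower, against 1029 and 2087 of 20698 genes. The median over the list was -0.14 with total counts and 0.22 with TMM, against -0.56 and -0.18 over all genes.

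In FoscKO the edgeR test called 0 of 18 in the same list, whose median was 0.74, against -0.04 over all genes. DESeq2 called 2 higher and 1 lower, and total counts, TMM from abundant genes and the subtracted background each gave 1 lower. Of all 21885 genes tested, DESeq2 called 59 higher and 32 lower, total counts 12 and 34, and TMM from abundant genes 11 and 33. With the background subtracted, 2 and 13 of 16911 genes were called. Of the 18, 5 were higher and 1 lower without overlap, against 5.75% and 6.47% of all genes. Egr1, a growth-factor-induced zinc finger factor and the most abundant of the list, was 16623 CPM in FoscKO and 10870 CPM in Control on average, a log2 fold change of 0.61 ± 0.37 (SE; edgeR adjusted p = 0.914). Its relative Egr3, chosen after its values were seen, had 2.05 ± 0.38 (SE; edgeR adjusted p = 0.0939), and the lower gene was Fosl1, at -1.77 ± 0.29 (SE; edgeR adjusted p = 0.0918). The authors' deposited table lists Egr3 at 1.71 and Fosl1 at -1.47, turned in the same way.

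Among the factors that switch NR4A genes on or hold them back, FosGFP+ had 4 higher and 0 lower of 14 tested, or 28.6% higher, against 10.3% of all genes. The list holds CREB, its CRTC coactivators, MEF2 factors and the class IIa deacetylases that repress MEF2, with SRF. They were Hdac4, a class IIa deacetylase, at 0.90 ± 0.18, Mef2d at 0.88 ± 0.21, Mef2a at 0.86 ± 0.18 and Crem, a CREB relative with repressor forms, at 0.75 ± 0.20 (SE). With TMM from genes of at least 50 CPM, 0 were higher and 2 lower, against 713 and 5307 of 20698 genes. The direction of this list therefore depends on the scaling. In FoscKO 0 of 14 were called, with Mef2d at 0.21 ± 0.27 and the coactivator gene Crtc2 at -0.03 ± 0.25 (SE).

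Of 13 other genes that cAMP induces, 4 were higher and 0 lower in FosGFP+, or 30.8% higher, against 10.3% of all genes. Cited2, a coregulator of CBP and p300, was 437 ± 55.3 CPM in FosGFP+ and 153 ± 45.5 CPM in FosGFP- (SD, n = 4), for a log2 difference of 1.51 ± 0.22 (SE). The phosphodiesterase genes Pde10a and Pde4b, whose enzymes break down cAMP, had 0.84 ± 0.23 and 0.80 ± 0.21, and Crem was the other. With TMM from abundant genes 1 was higher and 4 lower, against 713 and 5307 of 20698 genes. In FoscKO 0 of 13 were called, with the phosphatase gene Dusp1 at 0.11 ± 0.36 and Pde4b at 0.35 ± 0.31 (SE).

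The receptor partners gave no call. Rxrb was 69.8 ± 10.4 CPM in FosGFP+ and 45.0 ± 15.6 CPM in FosGFP- (SD, n = 4), for a log2 difference of 0.63 ± 0.24 (SE; edgeR adjusted p = 0.109), and Rxra had 0.06 ± 0.32 (SE; edgeR adjusted p = 0.915). In FoscKO they had 0.17 ± 0.29 and 0.44 ± 0.27 (SE), again with 0 of 3 called. Among the other nuclear receptors, FosGFP+ had 3 higher and 0 lower of 39 tested, and those 7.69% lie below the 10.3% of all genes called higher. Nr1d1 was 809 ± 124 CPM in FosGFP+ and 322 ± 68.6 CPM in FosGFP- (SD, n = 4), for a log2 difference of 1.33 ± 0.20, its relative Nr1d2 had 1.10 ± 0.26, and the oxysterol receptor gene Nr1h2 had 0.82 ± 0.22 (SE). The median of that list was -0.30, against -0.18 over all genes. With TMM from abundant genes 1 of the list was higher and 14 lower, against 713 and 5307 of 20698 genes. In FoscKO 0 of 39 were called, with Nr1d1 at 0.11 ± 0.29 and the ROR receptor gene Rora at 0.52 ± 0.32 (SE). Of 16 coregulators, Nrip1, a corepressor, at 0.81 ± 0.25 and Med1, a Mediator subunit, at 0.61 ± 0.18 (SE) were higher in FosGFP+, and neither with total counts. Their share of 12.5% is near the 10.3% of all genes. In FoscKO 0 of 16 were called, with the coactivator gene Ncoa1 at 0.60 ± 0.26 and the corepressor gene Ncor1 at 0.54 ± 0.28 (SE).

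Of 13 tested NR4A targets from muscle metabolism, 3 were higher and 0 lower in FosGFP+, or 23.1% higher, against 10.3% of all genes. Pgm2, a phosphoglucomutase, had 1.78 ± 0.26, Pdk4, which holds back glucose oxidation, 0.90 ± 0.20, and Pygm, the glycogen phosphorylase of muscle, 0.67 ± 0.20 (SE). With total counts 2 were higher and 2 lower, against 1029 and 2087 of 20698 genes. TMM from abundant genes gave 1 higher and 3 lower, against 713 and 5307. Of 12 tested targets known from other tissues, 1 was higher and 0 lower, the cell-death gene Bcl2l11 at 1.22 ± 0.19 (SE). That 1 of 12, or 8.33%, lies below the share of all genes. With TMM from abundant genes 1 of the 12 was higher and 4 lower, against 713 and 5307 of 20698 genes. In FoscKO 0 of 14 and 0 of 14 were called, with Pdk4 at 0.89 ± 0.32, Pygm at -0.47 ± 0.32, the receptor kinase gene Ret at 1.00 ± 0.33 and Klf2 at 1.40 ± 0.42 (SE). The median of the muscle targets was -0.37 there, beside -0.95 for the fibre markers, whose part in it was not tested.

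**Figure D4:**
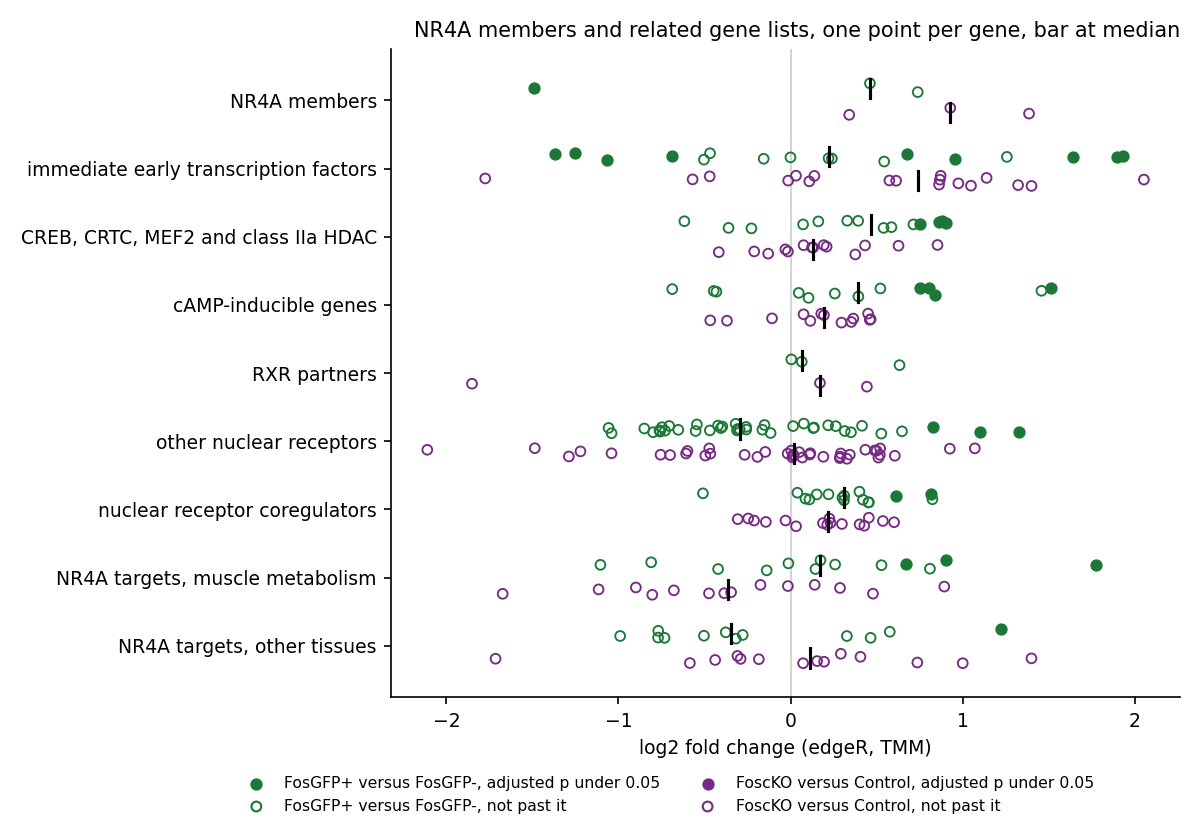
Log2 fold change of each tested gene in the 9 lists, FosGFP+ over FosGFP- in green above FoscKO over Control in purple. Filled points passed an edgeR adjusted p of 0.05, open ones did not, and black bars mark medians. Nr4a1 is the filled NR4A point at -1.49, beside Jun at -1.37 and Fos at -1.25 in the row below.

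Across the 14 libraries, with each dataset centred on its own mean, the gene whose log2 CPM was most like that of Nr4a1 among 13697 genes was Jun, with a Pearson r of 0.95. It was followed by Ccn1, a secreted matrix protein gene that is itself an immediate early gene, at 0.95, Idh2, a mitochondrial isocitrate dehydrogenase gene, at 0.94, Arpin, an inhibitor gene of actin branching, at 0.92, and Filip1l at 0.92. Jun stood at 0.95 in the first dataset and 0.97 in the second. Fos had an r of 0.79 with Nr4a1, 0.90 in the first dataset and 0.44 in the second. The points share their scaling, depth and background, and group differences enter each r, so these are descriptions only.

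Taken over both datasets together, the other members were not alike to Nr4a1, but the datasets differed. Over the 14 libraries r was 0.05 between Nr4a1 and Nr4a2, 0.04 between Nr4a1 and Nr4a3 and 0.59 between Nr4a2 and Nr4a3. The pair of Nr4a1 and Nr4a3 had -0.50 in the first dataset and 0.87 in the second, and that of Nr4a1 and Nr4a2 had -0.22 and 0.57. The genes most like Nr4a3 were Arl5b, a small GTPase gene, at 0.91, Tmem230 at 0.90, H2-Q6 at 0.89, Gtf2h1 at 0.88 and Pea15a at 0.88, where H2-Q6 is 1 of many near-identical class I histocompatibility genes and its count is uncertain. Those most like Nr4a2 were Zim1 at 0.84, Clec16a at 0.82, Cyp4v3 at 0.81, the receptor gene Tlr6 at 0.81 and the repressor gene Etv3 at 0.80.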

How the data were processed

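Per the labels' protocols, RNA of 1000 cells a library went through SMART-Seq v4 amplification and Nextera XT tagging, and was read on a HiSeq instrument. GRCm38, limma, DESeq2 1.20.0, HTSeq 0.6.1 and STAR 2.5.0c are named in the submitters' processing notes, without roles. The authors deposited raw counts per Ensembl gene in 2 tables, whose 5 HTSeq lines that name no gene were left out. The authors also deposited log2 fold changes (FosGFP- over FosGFP+ and Control over FoscKO, turned round here), their adjusted p-values and, as a score per gene, the standard error; 14 per-library columns in those tables match no label and were not used.

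Each table was fitted alone with edgeR 4.0.16 (R 4.3.3): filterByExpr, TMM, robust quasi-likelihood F-test, two-sided, Benjamini-Hochberg over all genes, threshold 0.05, tested on simulated data. Ratios used exact permutation (scipy 1.17.1). Exonic lengths came from GENCODE M21 and sequences from RefSeq (GRCm38.p6), where all 3 members matched. The even background was the count per exonic kb over receptor genes. Same-group libraries differed by more than sampling noise. The members and lists were chosen with earlier results of these data known. Beside the members and Fos, the text names up to 4 called genes per list and direction with the largest fold change, or the 2 of highest CPM where none was called, and the 5 genes most like each member among those of at least 5 CPM. Alternatives were other scalings and filters, DESeq2 1.42.0, limma-voom 3.58.1, a replicate block and leaving out each library.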

Additional observations from a re-analysis of the deposited data

How the results depend on the processing

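Nr4a1 stayed lower in FosGFP+ and past the threshold in all 18 alternatives, at -2.06 to -1.31. In FoscKO over Control its 16 alternatives ran from 0.58 to 1.12, none past the threshold. Nr4a2 turned sign with TMM from genes of at least 50 CPM, at -0.15 in FosGFP+ over FosGFP-. Nr4a3 in FosGFP+ passed without FosGFP- replicate 3, with left-out values of 0.56 to 1.201. In FoscKO it passed with no filter (1.41), DESeq2 (1.43) and the replicate block (1.47, adjusted p 0.0235), and in no other of 16 alternatives; the cause was not tested. Fos in FoscKO turned sign with total counts (-0.28), TMM from abundant genes (-0.28), a mean of at least 5 CPM (-0.091), limma-voom (-0.13), the replicate block (-0.13) and less the even background (-0.14); leaving out each library gave -0.56 to 0.33, lowest without FoscKO replicate 1.

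The ratio differences of Nr4a1 over Nr4a2 and over Nr4a3 in FosGFP+ kept their sign with each library left out, at -2.04 to -1.49 and -2.63 to -2.04, with an adjusted p of 0.0857, where 7 libraries allow no exact permutation p under 0.0571. With the replicate numbers as pairs the differences were -1.82 and -2.26 and the exact sign-flip p 0.125, the smallest 4 pairs allow. Same-numbered libraries deviated together with r of -0.01 to 0.02 in the first dataset and -0.02 to 0.13 in the second. Differently numbered ones ran from -0.12 to 0.15 and from -0.16 to 0.16. An r near 0 cannot exclude shared mice, as noise of single libraries enters it. No label says that the numbers mark mice, so they were not taken as pairs, and the block changed no other call on a member.

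Genes called higher and lower in FosGFP+ were 2125 and 383, against 1029 and 2087 with total counts, 713 and 5307 with TMM from abundant genes, 2126 and 588 at 5 CPM, 2779 and 644 with DESeq2, 1302 and 251 less the background, and 1689 to 2202 and 184 to 364 without 1 library; lower calls fell by over 1.5 times when FosGFP+ replicate 2 (245), FosGFP+ replicate 4 (218), FosGFP- replicate 1 (184), FosGFP- replicate 3 (237) or FosGFP- replicate 4 (227) was left out. In FoscKO they were 0 and 0, against up to 85 and 46 with no filter, 23 and 20 with the replicate block, and 16 and 27 without FoscKO replicate 1. The lowest count of a member was 58 reads, for Nr4a3 in FosGFP- replicate 4.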
